A study of Rattus norvegicus with 32 samples.

Results

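The Egr genes encode zinc finger transcription factors that neurons switch on within minutes of strong input. They were followed here in the nucleus accumbens, the ventral part of the striatum, 1 h after methamphetamine. The members were all genes that the platform annotation names Egr1, Egr2, Egr3 or Egr4, which gave 4 genes with 1 probe each among 13337 named genes. The probes were ILMN_1369005 for Egr1, ILMN_1370369 for Egr2, ILMN_1352189 for Egr3 and ILMN_1359043 for Egr4, and 3 of the 4 were above background. The METH arrays (5) came from male Sprague-Dawley rats killed 1 h after a single injection of methamphetamine (METH) at 20 mg/kg. The saline arrays (4) came from male Sprague-Dawley rats killed 1 h after saline, and no age is given for either group. Total RNA of the dissected tissue was hybridised to beadchips, and nothing in the labels separates the core from the shell of the accumbens.

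Egr proteins bind GC-rich sites through their zinc fingers and act as early links between neuronal activity and later gene expression. Their genes need no new protein to be switched on. In neurons, calcium entry and dopamine D1 receptors reach them through the ERK pathway, serum response factor with its Elk partners at CArG boxes, and CREB at cyclic AMP response elements. The Nab proteins bind several Egr factors and hold them in check.

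Promoter sequences were available for Egr1, Egr2 and Egr4 and are shown because all 3 genes rose. They are RefSeq sequences on rat build GRCr8, 250 bases before to 50 bases after the start, written 5′ to 3′ on the strand of the gene. Capitals mark CArG boxes (exact matches to CCWWWWWWGG, where W is A or T) and CRE half-sites (TGACG, which reads CGTCA on the other strand).
Egr1 promoter, chr18:26736828-26737127, plus strand: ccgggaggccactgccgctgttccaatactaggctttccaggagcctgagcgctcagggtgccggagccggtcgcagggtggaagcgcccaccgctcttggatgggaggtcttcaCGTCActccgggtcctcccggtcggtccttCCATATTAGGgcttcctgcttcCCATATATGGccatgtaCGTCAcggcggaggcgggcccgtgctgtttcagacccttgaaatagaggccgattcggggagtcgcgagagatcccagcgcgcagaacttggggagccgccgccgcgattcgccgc
Egr2 promoter, chr20:21054392-21054691, minus strand: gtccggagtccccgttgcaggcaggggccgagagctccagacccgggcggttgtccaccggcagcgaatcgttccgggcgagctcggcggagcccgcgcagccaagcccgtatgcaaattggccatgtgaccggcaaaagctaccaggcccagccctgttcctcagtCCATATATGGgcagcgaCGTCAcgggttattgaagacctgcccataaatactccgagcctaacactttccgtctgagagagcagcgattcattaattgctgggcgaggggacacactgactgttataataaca
Egr4 promoter, chr4:119607768-119608067, minus strand: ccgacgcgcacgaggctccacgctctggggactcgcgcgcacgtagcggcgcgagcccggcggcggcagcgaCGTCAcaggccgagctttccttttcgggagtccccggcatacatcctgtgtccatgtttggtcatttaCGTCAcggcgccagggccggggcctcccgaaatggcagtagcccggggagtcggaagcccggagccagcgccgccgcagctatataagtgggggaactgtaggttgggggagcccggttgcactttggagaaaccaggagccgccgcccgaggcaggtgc

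Egr1 held 2 CArG boxes and 2 CRE half-sites, Egr2 held 1 and 1, and Egr4 held 0 and 2. CArG boxes with a mismatch were not searched, and the Egr4 window does hold the letters CCATGTTTGG. In Egr1 and Egr2 a CArG box of the same letters stood at the same place, with 73 bases between it and the start, and a CRE half-site followed in both with 61 bases to the start. Over 33469 rat promoters of this length, searched on both strands, 1.64% held a CArG box and 21.2% a CRE half-site. The full CRE (TGACGTCA) was in none of the 3 promoters and in 1.83% of all. The letters GGAAG (or CTTCC on the other strand), a longer form of the GGAA core of ETS factors such as Elk, were searched. They occurred 4 times in Egr1, 0 times in Egr2 and 1 time in Egr4, and in 70.1% of all promoters. The shorter GGAA was not counted, and as TTCC it does stand in the Egr2 window, also just before the CArG box. In Egr1, 2 of the GGAAG matches overlapped an end of a CArG box. None of the 3 windows held the Egr site GCGTGGGCG or the TATA box letters TATAAA, which were in 0.544% and 14.2% of all promoters. Other forms of the TATA box were not searched, and the Egr4 window does hold the letters TATATAAG. Beside the Egr genes, 35 named genes passed the test and were higher with METH, and promoters were available for 26 of them. None of the 26 held a CArG box, against 1.23% of 6013 tested genes with a promoter, and 16 of 26 held a CRE half-site, against 33.9%. The full CRE was in 4 of the 26 (15.4%, against 3.53%), GGAAG in 19 (73.1%, against 75.3%), the TATA box (TATAAA) in 8 (30.8%, against 7.48%) and the Egr site in 0 (against 0.981%). A match of letters is a description of these windows and not a measurement of binding.

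The first question was whether Egr expression differed 1 h after METH. Egr1, Egr2 and Egr4 all rose with METH, by 3.41-fold, 6.78-fold and 6.23-fold, and on each of them every METH array was above every saline array. All 3 passed an adjusted p of 0.05 (limma over 9987 probes). How many of all probes separate the groups without overlap was not counted. Of all probes tested 0.521% were called, 0.491% as higher and 0.03% as lower with METH. That background of 49 higher and 3 lower probes depended on single arrays, with 187 higher and 63 lower without METH array 2. Egr1, Egr2 and Egr4 had the 3 smallest p-values of the 9987. In whole tissue, more cells expressing a gene and more RNA per cell cannot be told apart. The labels name 5 rats per group but do not say that each array came from its own rat, so the spread behind each p-value is that of the arrays and may be partly technical. The number of arrays limits the precision.

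Egr1, which encodes the family's founding member and is widely used as a marker of active neurons, was bright on every array. Its deposited intensity, background-subtracted and unscaled, was 3144.2, 3286.3, 3491.5, 2627.1 and 2621.2 on METH arrays 1 to 5, against 782.4, 635.6, 773.8 and 754.8 on saline arrays 1 to 4. The lowest METH value was 3.35 times the highest saline value. After background correction and quantile normalization the log2 level was 11.47 ± 0.08 with METH and 9.70 ± 0.10 with saline (SD, n = 5 and 4). The log2 fold change was 1.77 ± 0.10 SE (95% interval 1.54 to 2.00, limma adjusted p = 4.53e-06). Egr1 varied little between replicates, with a pooled SD of 0.091 on the log2 scale, and 1.66% of the tested probes had a smaller one. The size of its rise ranked 22 among all probes although its p-value ranked 1.

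Egr2, known in Schwann cells as a driver of myelination and in the embryo for patterning the hindbrain, had a low detection p on all 9 arrays, at most 0.00121. Its intensity was 2360.2, 2848.6, 1888.1, 2011.8 and 1487.5 on METH arrays 1 to 5, against 326.6, 196.3, 296.2 and 187.4 on saline arrays 1 to 4. The groups did not overlap, and the arrays within each group spread more widely than for Egr1 (coefficient of variation 24.2% with METH and 27.9% with saline). The log2 level was 10.94 ± 0.30 with METH and 8.17 ± 0.27 with saline (SD, n = 5 and 4). Its log2 fold change was 2.76 ± 0.17 SE (95% interval 2.38 to 3.14, limma adjusted p = 4.53e-06), and it ranked 3 by size of rise among the 9987 probes, after Fos and Arc. That order moved with the processing: Egr2 was above Arc with an offset of 50 (2.62 against 2.61), and below Egr4, Nr4a3 and Gem without further background correction (2.83 against 2.95, 2.90 and 2.90).

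Egr4, a member first described in cells treated with nerve growth factor and known in mice for its need in sperm development, was the dimmest of the 3. Its intensity was 477.9, 541.0, 461.3, 473.4 and 284.9 on METH arrays 1 to 5, against 47.9, 36.9, 50.7 and 54.9 on saline arrays 1 to 4. METH array 5 stood below the other METH arrays and was still 5.19 times the highest saline value. The saline values were above background on all 4 arrays, with a detection p of 0.0133 at most. The log2 level was 8.73 ± 0.29 with METH and 6.09 ± 0.20 with saline (SD, n = 5 and 4), and the log2 fold change was 2.64 ± 0.17 SE (95% interval 2.28 to 3.00, limma adjusted p = 4.53e-06). Because normalization adds an offset, the fold of a dim probe is understated. The ratio of mean deposited intensities was 9.41 for Egr4, 8.42 for Egr2 and 4.12 for Egr1, and the unscaled tables hold a general shift of 0.23 on the log2 scale towards METH.

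Egr3, which in mice is needed for muscle spindles and also responds to neuronal activity, was not above background on any of the 9 arrays. Its intensity was 15.4, 3.7, 5.8, 7.7 and 12.3 on METH arrays 1 to 5, against 10.9, 15.2, -0.5 and 0.9 on saline arrays 1 to 4, with a detection p of 0.073 to 0.39. The groups overlapped throughout. It did not pass the detection filter, was not tested, and no fold is given. A low signal from a single probe does not show that the gene was silent.

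**Figure D1:**
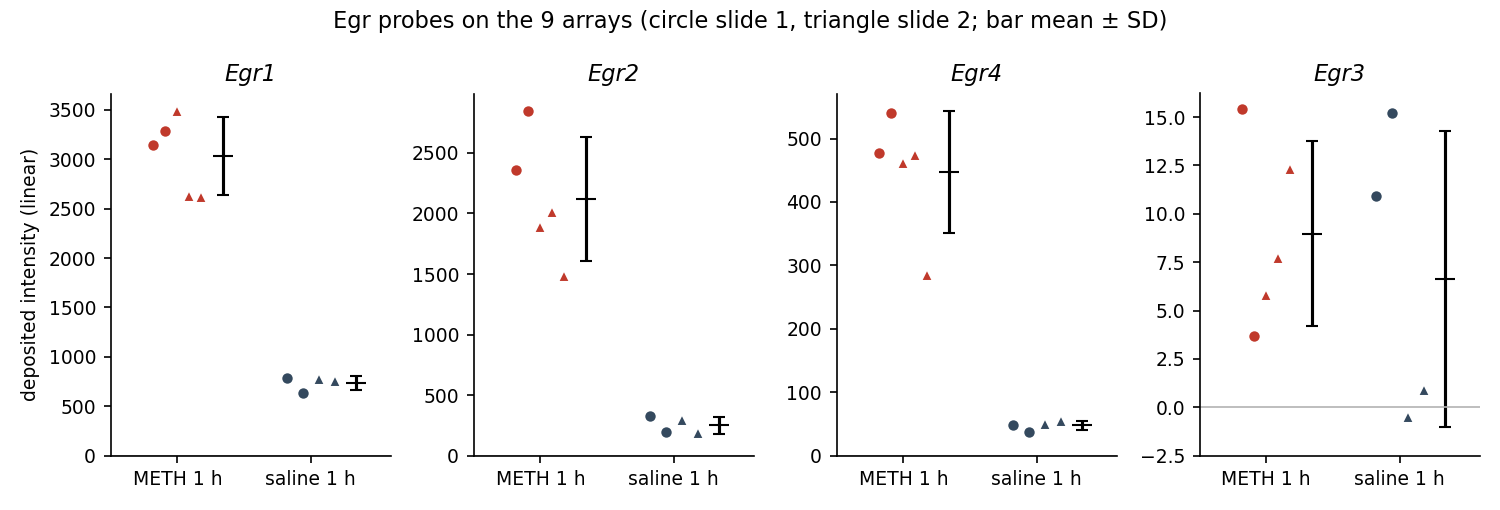
Deposited intensity (linear scale) of the 4 Egr probes on the 5 METH arrays and 4 saline arrays at 1 h, with circles for slide 1, triangles for slide 2 and bars for mean ± SD. For Egr1, Egr2 and Egr4 every METH array lies above every saline array, while Egr3 stays near 0 in both groups.

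The 9 arrays lay on 2 slides, each with arrays of both groups, and the rises were present on each slide. Within slide 1 (2 METH and 2 saline arrays) the log2 fold changes were 1.88 for Egr1, 3.03 for Egr2 and 2.93 for Egr4. Within slide 2 (3 METH and 2 saline arrays) they were 1.67, 2.59 and 2.39, and all 6 values passed within their slide (limma adjusted p of 2.76e-05 to 0.0191). With slide as a block they were 1.77, 2.79 and 2.64. The difference between slides was not tested. Set against the saline mean, Egr2 was higher by 3.01 and 3.06 (log2) on the METH arrays of slide 1, and by 2.52, 2.85 and 2.37 on those of slide 2. Its METH values on the 2 slides did not overlap, while those of Egr1 and Egr4 did. Groups of 2 and 3 arrays separate easily, and the share of all probes that do so was not counted.

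The members were next compared with each other, to see whether they changed by unequal amounts. Egr2 and Egr4 rose more than Egr1, a call that was lost with slide as a block (adjusted p = 0.05 for both, exact permutation test) and without any 1 of the 4 saline arrays (0.0536). With no difference found for Egr4 against Egr2, these settings allow no smaller adjusted p for the other pairs. The difference of 2 log2 levels was taken within each array, which removes what an array shares, and was compared between groups with an exact two-sided permutation test over the 126 regroupings, adjusted over the 3 pairs computed. Levels of different probes are not comparable, so only the change of this difference between groups was tested. Each gene had 1 probe, so unequal response of the probes and unequal change of the genes cannot be told apart. Egr2 minus Egr1 was -0.54 ± 0.28 with METH and -1.53 ± 0.30 with saline (SD, n = 5 and 4), a change of 0.99 ± 0.20 SE (exact p = 0.0159, adjusted p = 0.0238), and all 5 METH values were above all 4 saline values. Egr4 minus Egr1 was -2.75 ± 0.27 with METH and -3.61 ± 0.10 with saline, a change of 0.87 ± 0.14 SE (exact p = 0.0159, adjusted p = 0.0238), again without overlap. The size of the second change depended on the offset, at 0.44 with an offset of 50 and 1.18 in unscaled values (adjusted p = 0.0238 in both, exact permutation test). The value 0.0159 is the smallest that 5 against 4 arrays can give.

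For Egr4 against Egr2 no difference was found. The change was -0.12 ± 0.18 SE (95% interval -0.55 to 0.30, exact permutation p = 0.571, adjusted p = 0.571), which leaves room for Egr4 to have changed by less or by more than Egr2. Its sign depended on the processing. With an offset of 50 the change was -0.46 (adjusted p = 0.0476, exact permutation test), and without further background correction it was 0.12. Between Egr2 and Egr4 no order of the rises was found.

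**Figure D2:**
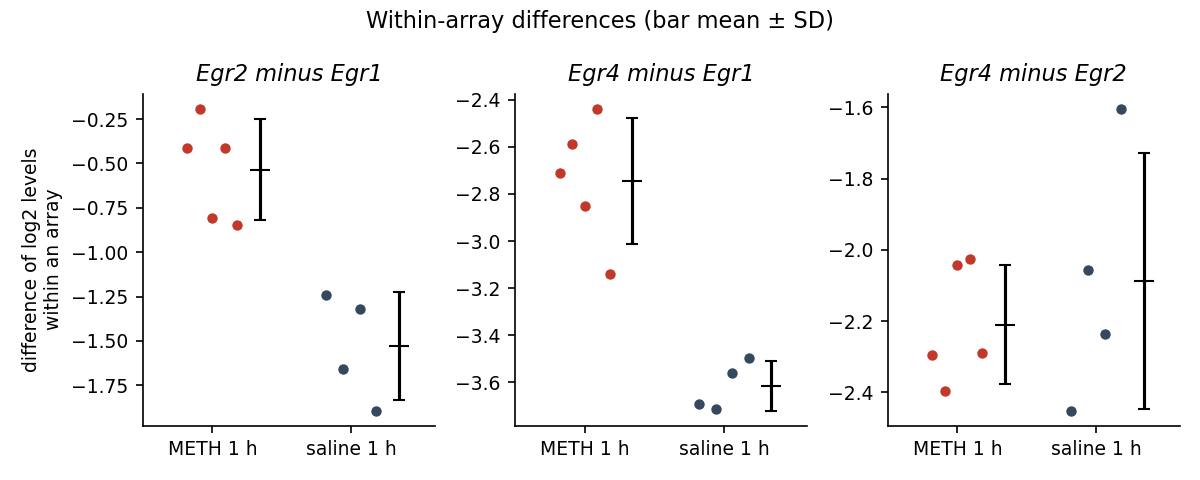
Within-array difference of log2 levels for the 3 pairs of Egr genes on the 5 METH and 4 saline arrays, with bars for mean ± SD. The groups are apart for Egr2 minus Egr1 and Egr4 minus Egr1, and overlap for Egr4 minus Egr2.

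Array by array, the members deviated in part together. After each group mean was taken off, Pearson's r over the 9 arrays was 0.61 between Egr1 and Egr4, 0.53 between Egr2 and Egr4 and 0.14 between Egr1 and Egr2. These are descriptions over few arrays that share normalization. METH array 5 had the lowest log2 level of all METH arrays for each of the 3 genes, at 1.69 (Egr1), 2.37 (Egr2) and 2.17 (Egr4) above the saline mean. The highest was METH array 1 for Egr1 (1.90), METH array 2 for Egr2 (3.06) and METH array 4 for Egr4 (2.91).

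Markers of neighbouring tissue differed between the same arrays. Of 7 tested markers of cortical neurons none passed, against 38 higher and 2 lower of 7203 genes tested. Of the 7, 6 had a log2 fold change above 0, against 3315 of all 7203 genes. Their median was 0.66 (range -0.35 to 1.80), against -0.021 over all genes. Among them the vesicular glutamate transporter gene Slc17a7 had 1.80 ± 0.63 SE (limma adjusted p = 0.301) and Neurod6, a transcription factor gene of cortical neurons, 1.47 ± 0.71 SE (limma adjusted p = 0.475). Slc17a7 was above background on 4 of 5 METH arrays and 2 of 4 saline arrays, and Neurod6 on 4 and 3. For Neurod2 these counts were 4 and 1, and for Neurod1, whose value of 0.66 is the list median, 3 and 1. Probes that pass the filter mostly on METH arrays lean towards values above 0. The direction of the list, its medians per array and the covariate made from them are therefore not independent of the filter. Without METH array 2 Slc17a7 and Neurod6 passed, with log2 fold changes of 2.42 and 2.13 (limma adjusted p = 0.00338 and 0.0278). Within slide 1 they had 0.84 and 0.47, and within slide 2 2.37 and 2.08, none of which passed. The summed intensity of the 7 ranged from 2857 to 4233 on METH arrays and from 2534 to 2877 on saline arrays. The 4233 was that of METH array 2, and the other METH arrays had 2857 to 3002. Lamp5 was much the brightest of the 7 and so weighs most in the sum, and its log2 fold change was -0.35. Per array, the median of the 7 was 0.64, -0.20, 0.90, 0.90 and 1.54 above the saline mean on METH arrays 1 to 5, and ranged from -0.27 to 0.41 on saline arrays. On METH array 2, where this median was below 0, Egr2 was the highest of the METH arrays (3.06), Egr4 was in the middle (2.75) and Egr1 was second lowest (1.72). With the median as a covariate the log2 fold changes were 1.76 for Egr1, 3.10 for Egr2 and 2.79 for Egr4 (limma adjusted p of 7.6e-07 to 5.93e-06), against 1.77, 2.76 and 2.64 without it.

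Markers of striatal neurons were well represented, with 16 of 17 genes past the filter. The other, Drd3, a dopamine receptor gene enriched in the accumbens, was above background on 0 of 9 arrays. None of the 16 passed, against 38 higher and 2 lower of 7203 genes tested. Their median log2 fold change was -0.46 (range -0.81 to 0.63), and 2 of the 16 were above 0, against 3315 of 7203 genes. The largest changes were those of the transcription factor gene Isl1 at -0.81 ± 0.25 SE and the adenosine receptor gene Adora2a at -0.79 ± 0.19 SE (limma adjusted p = 0.249 and 0.124). Without METH array 2 both passed, at -1.02 and -0.90 (limma adjusted p = 0.0127 and 0.0212). With the cortical marker covariate they had -0.15 and -0.43 (limma adjusted p = 0.800 and 0.419), and within slide 1 -0.39 and -0.40 (limma adjusted p = 0.911 and 0.714). The summed intensity of the 16 ranged from 16339 to 34725 on METH arrays and from 23491 to 31339 on saline arrays. The lowest median was -0.84, on METH array 5, where the Egr genes were also at their lowest with METH. The part of tissue composition in that array's values was not tested.

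**Figure D3:**
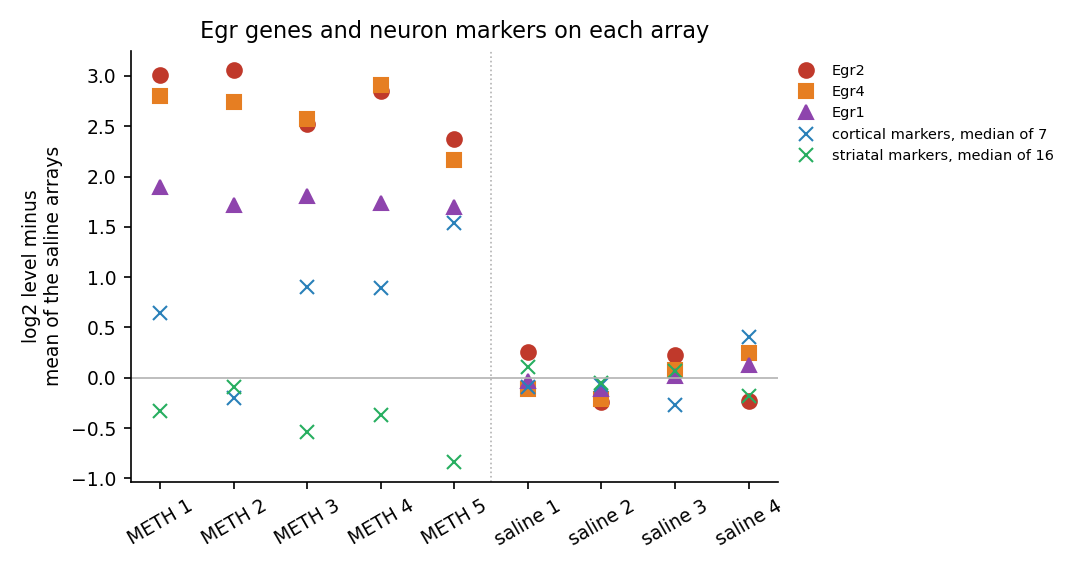
Log2 level minus the mean of the 4 saline arrays for Egr2, Egr4 and Egr1, with the medians of 7 cortical and 16 striatal neuron markers, on each of the 9 arrays. The Egr genes lie at 1.69 or more on all METH arrays, while the marker medians vary from array to array and the striatal one is lowest on METH array 5.

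Markers of other cell types gave 1 call. None of 9 astrocyte, 12 oligodendrocyte or 7 microglia markers passed, against 38 higher and 2 lower of 7203 genes tested. Their median log2 fold changes were -0.068, -0.0069 and -0.031. The largest in size were those of the astrocyte genes S100b (-0.38 ± 0.15 SE) and Aldoc (-0.27 ± 0.17 SE), the oligodendrocyte genes Mobp (0.40 ± 0.17 SE) and Opalin (-0.34 ± 0.17 SE), and the microglia genes Cx3cr1 (-0.30 ± 0.16 SE) and Aif1 (-0.29 ± 0.19 SE). Of 5 endothelial markers, whose median was -0.22, 1 fell, Sox18, a transcription factor gene of vessels (log2 fold change -0.66 ± 0.12 SE, limma adjusted p = 0.0378). It was above background on 1 of 5 METH arrays and 4 of 4 saline arrays, and it did not pass within either slide, with median scaling, with no detection filter, or without METH array 1, 3 or 4 or saline array 2, 3 or 4. Sox17, of the same family, had -0.31 ± 0.14 SE (limma adjusted p = 0.451).

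Among other early response genes, induced by the same kinds of input, Egr2 and Egr4 stood near the top, and 9 of the 28 tested had a larger log2 fold change than Egr1. Of the 28 genes 17 rose and 0 fell, against 38 and 2 of 7203 genes tested, and the list median was 1.53. This list was written with earlier results of these data known, so its direction is not independent evidence. Fos, the AP-1 subunit, rose 14.3-fold (limma adjusted p = 1.77e-05) and Arc, a synaptic protein gene, 7.67-fold (limma adjusted p = 1.77e-05), while the phosphatase gene Dusp1 rose 6.44-fold and the nuclear receptor gene Nr4a3 6.40-fold. Fos was above background on 2 of 4 saline arrays, so its fold is less certain. Gem was above background on 0 of 4 saline arrays, and Npas4, Ier2, Ier5, Klf2 and Atf3 on 1 of 4. All of these were above background on 5 of 5 METH arrays and passed the filter through them. The filter thus favours rises among the dim genes of this list. Dusp1 and Nr4a3 lay between Egr2 and Egr4, which ranked 6, and the 95% intervals of these 4 genes overlapped. Within slide 2 alone, with its fewer arrays, 7 of the list passed, and Egr1, Egr2 and Egr4 passed too.

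**Figure D4:**
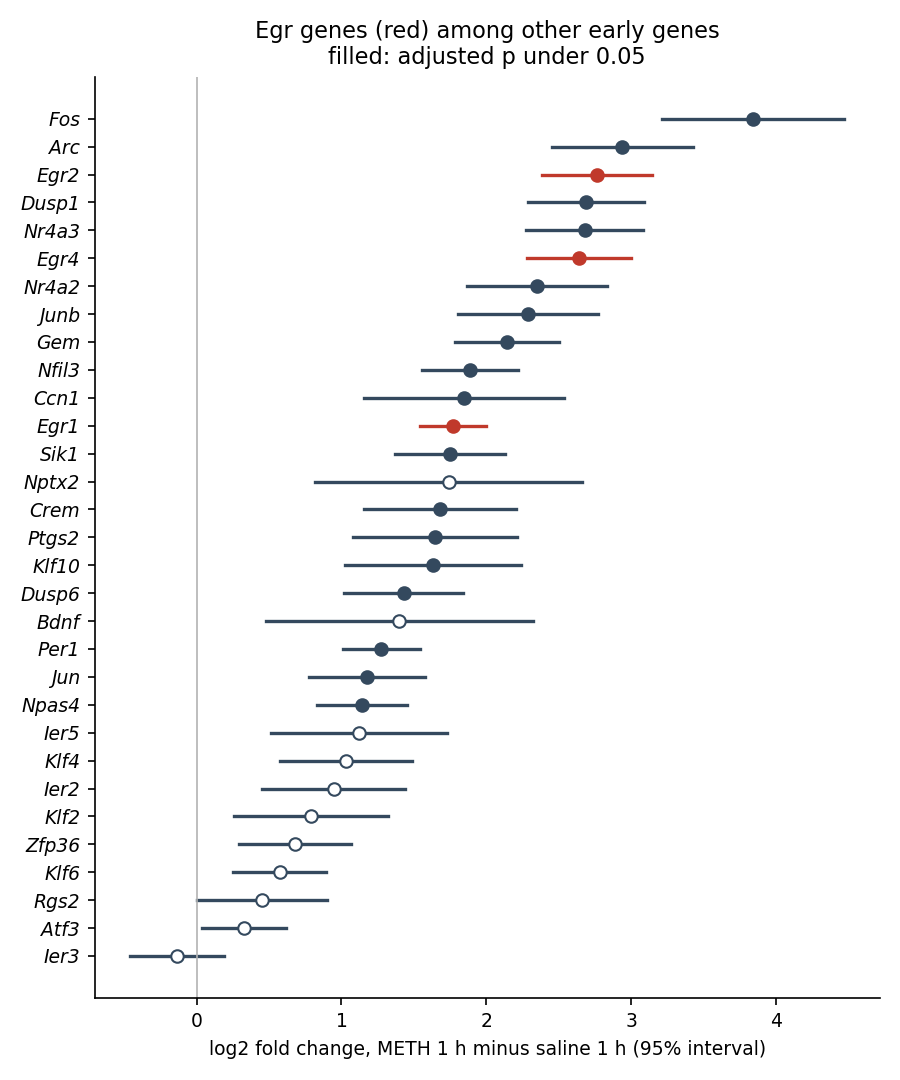
Log2 fold change (METH 1 h minus saline 1 h) with its 95% interval for Egr1, Egr2 and Egr4 in red and 28 other early genes in dark blue, filled where the limma adjusted p was under 0.05. Egr2 and Egr4 stand near the top and Egr1 has the narrowest interval of the genes drawn.

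The genes whose pattern over the 9 arrays was most like that of each member were genes that also rose, by Pearson's r, among 7200 genes. For Egr1 they were Arc (0.988), Dusp1 (0.986) and Vps37b, an endosomal sorting gene (0.979). Those of Egr4 were Arc (0.991), Junb, an AP-1 gene (0.987), and Fos (0.986). Those of Egr2 were the repressor gene Nfil3 (0.986), the clock gene Per1 (0.986) and the GTPase gene Gem (0.979), whose probe was above background on 0 of 4 saline arrays. Such values mostly restate the difference between the groups. Within slide 2 alone Junb, Per1 and Vps37b did not pass, nor did Vps37b within slide 1. With group means taken off, the 3 highest were Tapbp, Vkorc1l1 and Arc for Egr1 (0.922, 0.914 and 0.910), Morn4, Tyw5 and Gipc2 for Egr2 (0.986, 0.971 and 0.960), and Mrps18a, Ephb1 and Epm2aip1 for Egr4 (0.973, 0.961 and 0.959), and only Arc among these 9 genes passed the test between groups. The highest of 7200 correlations over 9 arrays will be large in any data.

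Genes that act upstream of the Egr promoters were examined next, since transcripts of the ERK pathway, SRF partners, CREB and the receptors that feed them could differ as well. None of 13 tested members passed (smallest limma adjusted p = 0.215), against 38 higher and 2 lower of 7203 genes tested. At that share a list of 13 would rarely hold a call. Of the 13, 9 were above 0, against 3315 of 7203 genes, and the median log2 fold change was 0.17. The largest in size was that of Rps6ka5, a kinase that phosphorylates CREB and histone H3, at -0.60 ± 0.18 SE (95% interval -0.99 to -0.22, limma adjusted p = 0.215). Without METH array 2 it had -0.72 and passed (limma adjusted p = 0.0418), while with the cortical marker covariate it had -0.26 (limma adjusted p = 0.636). Drd1, the dopamine D1 receptor gene, had -0.51 ± 0.22 SE (95% interval -0.99 to -0.036, limma adjusted p = 0.422), and Srf itself 0.17 ± 0.12 SE (limma adjusted p = 0.638). The CREB gene Creb1, with 2 probes, and the Elk genes Elk3 and Elk4 did not pass the detection filter. These are transcript levels, and phosphorylation of the proteins was not measured here.

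Of the co-regulators, 2 of 8 had a named probe. Nab1, a corepressor of Egr factors, had a log2 fold change of 0.36 ± 0.28 SE (limma adjusted p = 0.679) and was above background on 3 of 5 METH arrays and 1 of 4 saline arrays. Nab2, its relative and a known target of Egr factors in other cells, was above background on 0 of 9 arrays and was not tested.

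Targets of Egr factors reported from work in several tissues gave 1 call at 1 h. Of 10 tested genes 1 rose, against 38 of 7203 genes tested. It was Arc, which also responds directly to neuronal activity. Of the 10, 5 were above 0, against 3315 of 7203 genes. The median log2 fold change was 0.020, against -0.021 over all genes. Ngfr, the low-affinity neurotrophin receptor gene, had -1.11 ± 0.30 SE (95% interval -1.75 to -0.46, limma adjusted p = 0.177). Without METH array 2 it had -1.27 and passed (limma adjusted p = 0.0386), as it did without saline array 4 (-1.40, limma adjusted p = 0.0451). With the cortical marker covariate it had -0.53 (limma adjusted p = 0.553). The synapsin genes Syn1 and Syn2 had 0.37 ± 0.22 SE and -0.37 ± 0.13 SE (limma adjusted p = 0.579 and 0.289). Gabra4, a GABA receptor subunit gene controlled by Egr3 in rat neurons, had -0.35 ± 0.17 SE (limma adjusted p = 0.482). Th, the tyrosine hydroxylase gene, was above background on 1 of 9 arrays and was not tested.

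The myelin and lipid genes that Egr2 controls in Schwann cells gave no call either. None of 4 tested genes passed, against 38 higher and 2 lower of 7203, and so short a list would rarely hold a call. All 4 were above 0, against 3315 of 7203 genes, and the median was 0.17. Sqle, a cholesterol synthesis gene, had 0.32 ± 0.14 SE and the myelin gene Mag 0.25 ± 0.18 SE (limma adjusted p = 0.447 and 0.635), while Mbp, a main myelin protein gene made in the brain by oligodendrocytes, had 0.081 ± 0.15 SE (limma adjusted p = 0.878). A single time of 1 h leaves later targets unmeasured here.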

How the data were processed

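Total RNA was measured on beadchips with 22523 probes. BeadStudio made the deposited intensities, per the submitters' processing notes, and its version is not given in the sources used here. The deposited intensity had its background taken off and no scaling, since 28.7% of values were below 0 and array means ran from 164.3 to 231.4. The deposited detection p-value put 41.5% to 47.3% of probes above background (p under 0.05). Of 32 arrays, the 9 at 1 h were used. The other 23, whose deposited detection column is a fraction, are not analysed here: their rows do not pair with the probe IDs (rank correlation with the 1 h arrays -0.0095 to 0.00062, against 0.925 to 0.961 among the 1 h arrays).

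Arrays were normalized to log2 from the deposited intensities with neqc (offset 16) in limma 3.58.1 under R 4.3.3. The 9987 probes with detection p under 0.05 on at least 4 arrays were fitted with lmFit and with eBayes allowing a trend with intensity. Tests were two-sided, and p-values were adjusted by Benjamini-Hochberg. Fits were tested on simulated data. The alternatives were other scalings, offset, filter, array weights, slide, replicate number, a cortical marker covariate and leaving out single arrays. Genes were named from the platform annotation (1 gene for 13793 probes, none for 8730), and the brightest probe stood for a gene. All 4 members matched RefSeq by Entrez ID.

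Members, lists and alternatives were chosen with earlier results of these data known. The rule named all members, the 3 genes most like each on either measure, up to 4 genes per list past the threshold with the smallest p (where fewer than 2 passed, the 2 with the largest change), and Fos and Arc. Srf, Syn1, Syn2, Gabra4, Mbp and genes below the filter were named after their values were seen. Same-numbered METH and saline arrays were not taken as pairs, since their deviations correlated at 0.072, 0.095, 0.080 and 0.247.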

Additional observations from a re-analysis of the deposited data

How the results depend on the processing

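Egr1, Egr2 and Egr4 rose past the threshold under all 22 alternatives, 9 of which left out 1 array. Their log2 fold changes ranged from 1.67 to 2.04 (Egr1), 2.59 to 3.10 (Egr2) and 2.16 to 3.22 (Egr4), with ranges over left-out arrays of 1.73 to 1.81, 2.68 to 2.86 and 2.57 to 2.75. Egr4 was lowest with an offset of 50 and highest in unscaled values. With the replicate block they were 1.79, 2.86 and 2.76. The replicate block changed no call on these genes. Same-numbered arrays did not all correlate best with each other.

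The number of probes past the threshold was 52. It was 225 in unscaled values (median of all probes 0.23), 251 with array weights (159 higher and 92 lower, against 49 and 3), 16 within slide 2, 82 with the replicate block, 84 with the cortical marker covariate and 32 to 250 with 1 array left out (250 without METH array 2, 32 without saline array 2, 33 without saline array 3). Of other early genes 7 rose within slide 2, and 13 to 22 with 1 array left out.

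For unequal change, Egr2 minus Egr1 was 0.86 to 1.09 and Egr4 minus Egr1 0.79 to 0.96 with 1 array left out. Egr4 minus Egr1 was 0.44 with an offset of 50 and 1.18 in unscaled values, and passed in both. Without any 1 saline array (adjusted p = 0.0536, exact permutation), or with slide as a block (1.02 and 0.87, adjusted p = 0.05, exact permutation within slides), neither passed. With so few regroupings, and no difference found for Egr4 minus Egr2, no smaller adjusted p was possible there. Egr4 minus Egr2 was -0.46 with an offset of 50 and passed there (adjusted p = 0.0476, exact permutation), and was -0.25 to 0.05 with 1 array left out. Among 35 other named genes, 735 values kept their side of the threshold, 14 lost it and 12 gained it, and 0 reversed. Averaging several probes of a gene was not run, since each member had 1 probe.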
